A study of Homo sapiens with 12 samples.

Results

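The genes described here are 33 genes of the endoplasmic reticulum (ER), namely its chaperones and folding enzymes, the machinery that disposes of misfolded proteins, the sensors and factors of the unfolded protein response (UPR), and components of protein entry, glycosylation and export. They were chosen by symbol from a list of these functions, and all 33 were found among the 16705 genes of the deposited expression table. RNA from human liver spheroid co-cultures was sequenced as 12 libraries, with 3 in each of 4 groups: untreated for 24 h, exposed to 1% total parenteral nutrition (TPN) for 24 h, untreated for 144 h, and exposed to 1% TPN for 144 h. The spheroids combined HepG2/C3A cells, a hepatocyte-like clone of a hepatoma line, with LX-2 cells, an immortalized line derived from hepatic stellate cells. TPN is the intravenous mixture of amino acids, electrolytes, glucose, lipid emulsion, trace elements and vitamins given to patients who cannot be fed by the gut. All 4 groups shared a Minimum Essential Medium with fetal bovine serum, controls received no TPN at the same times, and many spheroids were pooled for each library. Each cell type is 1 line grown as spheroids, so the groups differ in exposure and time and not in donor. The comparisons ask how the ER genes differ between exposed and untreated spheroids at each time, whether that difference changes between 24 h and 144 h, and how the same genes move with culture time in untreated spheroids.

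Hepatocytes secrete most plasma proteins, and nearly all of these pass through the ER, where chaperones of the HSP70 and HSP90 families, lectin chaperones and protein disulfide isomerases fold them. When unfolded proteins accumulate, the sensors IRE1 (ERN1), PERK (EIF2AK3) and ATF6 start the UPR, which slows translation and raises transcription of chaperones and of ER-associated degradation (ERAD), the route that moves misfolded proteins to the proteasome. IRE1 splices XBP1 mRNA, PERK phosphorylates eIF2α and favours translation of ATF4, and cleaved ATF6 and spliced XBP1 act through ER stress response elements (ERSE) in the promoters of their targets.

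These elements were looked for in the promoters of the members, since they are the sequences through which the ATF6 and XBP1 branches are known to act. The promoter windows run from 250 bases before to 50 bases after the start of each gene (RefSeq, GRCh38.p14), and 29 of the 33 members matched an entry. PDIA3, DERL1, DERL3 and SEC24D did not. Searched on both strands, the ERSE (CCAAT and CCACG with 9 bases of any kind between them) was present in 6 of the 29 member promoters and in 14 of the 9494 promoters of tested genes (0.147%). The ERSE-II (ATTGG and CCACG with 1 base between them) was present in 3 member promoters and in 11 of all (0.116%), and TGACGTGG, the unfolded protein response element (UPRE), was present in 1 member promoter and in 85 of all (0.895%). The stretches below are shown for 4 genes with an ERSE and 2 with an ERSE-II whose log2 fold changes differed, and the capitals mark the whole element, its spacer included.
HSPA5: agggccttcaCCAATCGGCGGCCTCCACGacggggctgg
XBP1: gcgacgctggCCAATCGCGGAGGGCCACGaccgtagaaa
CALR: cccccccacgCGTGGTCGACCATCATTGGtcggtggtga
CRELD2: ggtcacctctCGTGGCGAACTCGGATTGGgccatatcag
HERPUD1: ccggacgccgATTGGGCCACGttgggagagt
SDF2L1: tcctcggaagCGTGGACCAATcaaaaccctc
The HSPA5 stretch lies at chr9:125241381-125241419 on the minus strand, with its element 66 to 48 bases before the start. The XBP1 stretch lies at chr22:28800593-28800631 on the minus strand, 52 to 34 bases before the start for the element, and the CALR stretch at chr19:12938374-12938412 on the plus strand, 225 to 207 bases before it. The CRELD2 stretch lies at chr22:49918544-49918582, the HERPUD1 stretch at chr16:56932015-56932045 and the SDF2L1 stretch at chr22:21642104-21642134, all on the plus strand. In CALR, CRELD2 and SDF2L1 the element is read on the strand opposite to the gene. Distances are counted from the RefSeq starts. For CALR and HSP90B1 these differ from the starts in the gene positions printed below, which are those of the deposited table. HSP90B1 held 2 ERSEs, CANX held 1, and HYOU1 held 2 ERSE-IIs, of which the farther overlapped its UPRE. A match is a description of the letters in these windows and no evidence of binding.

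Values are FPKM, in which the fragments of a gene are divided by its transcript length and by the library's mapped total, so that levels can be compared between genes. Summed FPKM ran from 561657 to 583722 per library. Since FPKM are already divided by the library's total, these sums cannot show a library of unlike depth. The steps between low values, pooled over the 12 libraries, gave a depth of about 1.85e+07 fragments (confidence limits of the fit 1.81e+07 to 1.88e+07). Only genes whose low values all lay near whole multiples of their smallest value entered the fit. Of the 967 values examined, 66.8% lay near such multiples, and the limits take no account of this selection. Depth was not estimated for each library. The labels were checked against cell type markers. Hepatocyte markers were abundant, with a summed level of 10 markers of 11854 to 12223 FPKM in untreated and 10919 to 10951 in exposed spheroids at 24 h, and of 13225 to 14205 in untreated and 10322 to 11059 in exposed spheroids at 144 h, and ALB, which encodes albumin, fell with TPN at 144 h (6044 ± 341 to 3863 ± 164 FPKM, SD, n = 3). CYP7A1 was at or near 0 throughout. Among 10 stellate cell markers, COL1A1 averaged 15.1 FPKM in untreated spheroids at 24 h and 1.92 at 144 h, and VIM 15.6 and 2.44, whereas LOX averaged 56.6 and 146. The summed level of the 10 stellate markers was 154 to 158 and 148 to 154 FPKM in untreated and exposed spheroids at 24 h, and 198 to 207 and 214 to 217 at 144 h. This sum hides the single genes. With time in untreated spheroids, 7 of the 9 tested stellate markers were lower and only 1, LOX, was higher, beside 52.4% and 20.1% of all genes. With TPN at 144 h, 5 of the 9 tested stellate markers fell, beside 28.3% of all genes. COL1A1 fell by 1.25, COL3A1 by 1.40, VIM by 1.07, COL1A2 by 1.07 and PDGFRB by 0.40 on the log2 scale. COL3A1 (0.50 to 0.13 FPKM) and COL1A2 (0.27 to 0.09) lay near the floor at 144 h. Both passed the filter on low values only through their 24 h levels, so their falls carry little weight. LOX, which makes up most of the sum at 144 h, rose from 146 to 166 FPKM. At 24 h LOX rose and ACTA2 fell. Of 5 markers of other cell types, PTPRC, PECAM1, VWF and KRT7 were near 0, and CD68 lay between 46.1 and 65.3 FPKM once summed with them. These levels move with exposure and time, and their part in the results on ER genes was not tested. In RNA from whole spheroids, fewer cells of a type and less RNA per cell cannot be told apart.

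The members took 1.21% to 1.23% of the summed FPKM in untreated spheroids at 24 h, 1.16% to 1.17% in exposed spheroids at 24 h, 1.42% to 1.44% in untreated spheroids at 144 h and 1.40% to 1.43% in exposed spheroids at 144 h. Levels spanned more than 2 orders of magnitude. In untreated spheroids at 24 h the highest were the calcium-binding lectin chaperone CALR (1064 ± 19.2 FPKM, SD, n = 3), the ER HSP90 protein HSP90B1 (938 ± 17.2), the disulfide isomerase P4HB (923 ± 13.6) and the prolyl isomerase PPIB (804 ± 4.32). In each of these 3 libraries CALR lay above both HSP90B1 and P4HB. HSP90B1 lay above P4HB in each as well (957.9 and 936.1, 926.5 and 909.0, 929.9 and 923.6 FPKM in replicates 1 to 3). Levels were not tested between genes. The sensors lay near the lower end, with ATF6 at 11.4 ± 0.253, EIF2AK3 at 7.49 ± 0.210 and ERN1 at 3.32 ± 0.240 FPKM, in the range of DERL2 (8.08), DNAJB9 (11.0) and EDEM1 (11.3). DERL3, a Derlin of the ERAD channel, lay between 0 and 0.16 FPKM, was listed at 0 in 7 of the 12 libraries and was not tested. The other 32 members were tested.

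**Figure D1:**
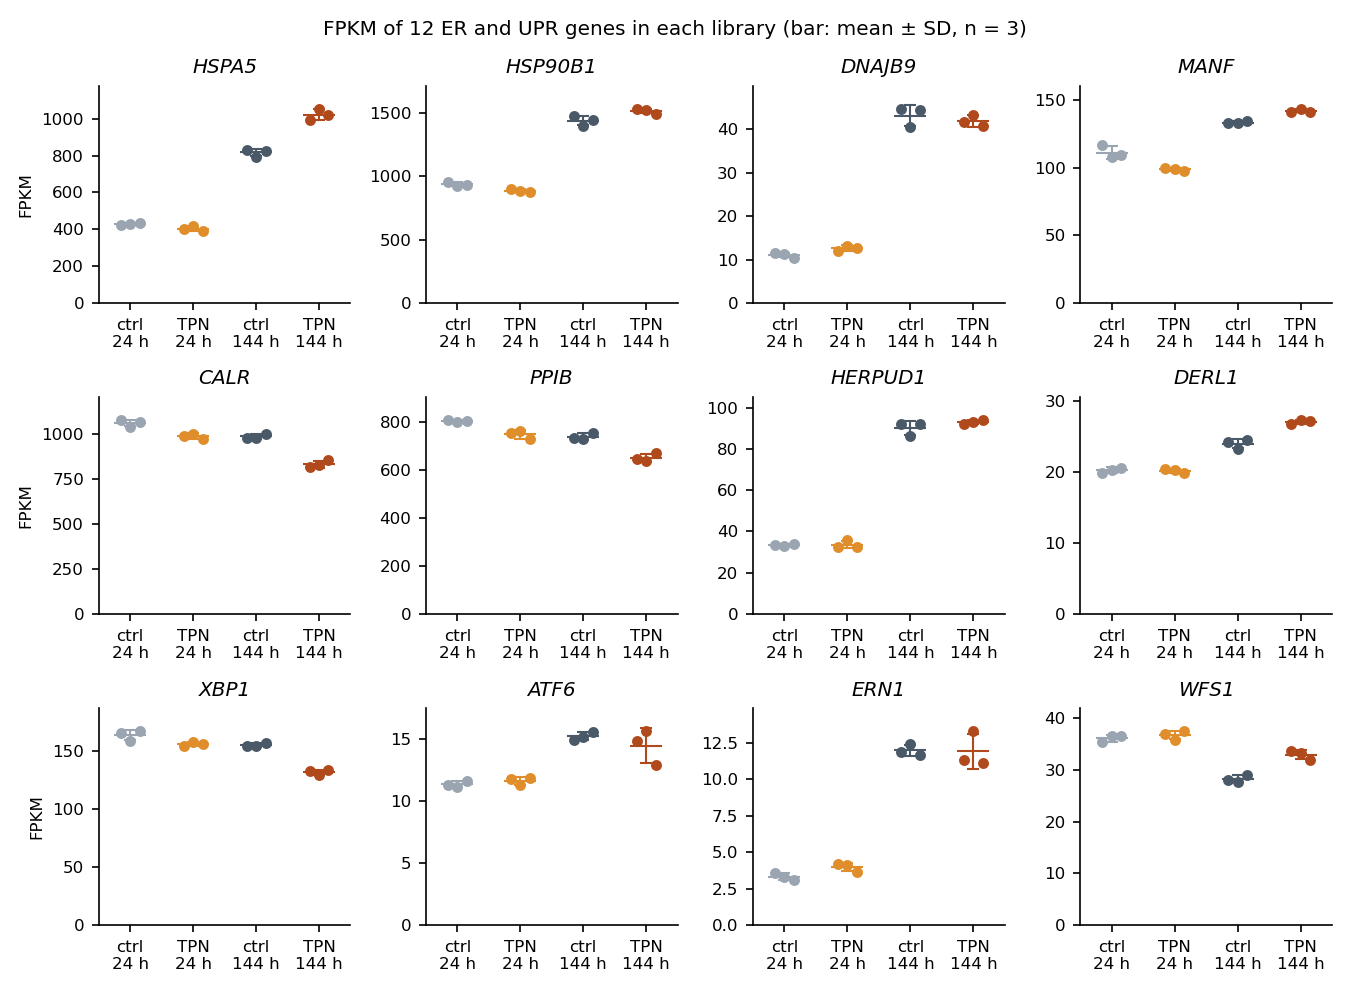
FPKM of 12 members in each library, by group (ctrl: untreated; TPN: 1% TPN), with dots for libraries, a bar for the mean and whiskers for the SD (n = 3). HSPA5 separates all 4 groups, from 393 to 433 FPKM at 24 h to 994 to 1052 in exposed spheroids at 144 h, while HERPUD1 and ERN1 separate the times, and CALR and XBP1 are lowest in exposed spheroids at 144 h.

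At 24 h of exposure few of these genes changed. Expression was compared as log2(FPKM + 0.1) with limma, and a gene was called at a Benjamini-Hochberg adjusted p below 0.05 over all 11713 genes tested. By this rule 1 of 32 members rose (3.12%, against 5.04% of all genes) and 3 fell (9.38%, against 5.46%). The median log2 fold change was -0.03 over the members, between -0.17 and 0.26, and -0.0045 over all genes tested. With the added requirement of an absolute log2 fold change above 0.58, which the study used for its own calls, no member was called in either direction (0.64% of all genes higher, 0.273% lower). At an unadjusted p below 0.05, 11 of the 32 members were past the test (34.4%, against 23.9% of all genes).

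The member that rose at 24 h was DNAJB9, a J-domain co-chaperone of HSPA5 that represses IRE1 and takes part in ERAD. DNAJB9 measured 11.5, 11.2 and 10.5 FPKM in untreated replicates 1 to 3 and 11.9, 13.2 and 12.7 in exposed ones. Every exposed library lay above every untreated one, with a log2 fold change of 0.19 ± 0.05 (SE) and an adjusted p of 0.0281 (limma). The call was lost without untreated replicate 2 or 3 or without exposed replicate 2 or 3, with log2 fold changes of 0.15 to 0.20 and adjusted p values of 0.0597 to 0.116 in those fits. It was also lost with no filter on low values, with only the groups compared in the model and without the intensity trend (0.0511 to 0.0548).

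The members that fell at 24 h were MANF, CALR and PPIB. MANF, an ER protein that is secreted when ER calcium is depleted, measured 116, 108 and 109 FPKM in untreated replicates and 100.0, 98.8 and 97.6 in exposed ones, so that the groups did not overlap. Its log2 fold change was -0.17 ± 0.03 and its adjusted p 0.00221. CALR measured 1079, 1043 and 1070 FPKM in untreated and 994, 1005 and 974 in exposed replicates (log2 fold change -0.10 ± 0.03, adjusted p = 0.0219, limma). PPIB, cyclophilin B, measured 808, 799.6 and 805 FPKM in untreated and 754, 764 and 729 in exposed replicates (log2 fold change -0.10 ± 0.03, adjusted p = 0.0285, limma). The exposed libraries of both genes were all below the untreated ones. The call of CALR was lost without untreated replicate 1 or 3 or exposed replicate 1 or 3 (adjusted p of 0.058 to 0.0875), and without the intensity trend (0.066). The call of PPIB was lost without any of the 3 untreated replicates or without exposed replicate 1 or 3 (0.0637 to 0.115), without the intensity trend (0.0813), and after quantile normalization, where the change was -0.06 (0.117). The call of MANF held in every fit that left out a library.

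Of the 3 sensors, none passed the test at 24 h. ERN1 measured 3.55, 3.33 and 3.07 FPKM in untreated and 4.17, 4.13 and 3.65 in exposed replicates, with no overlap, a log2 fold change of 0.26 ± 0.08 and an adjusted p of 0.0526. It was past the threshold when untreated replicate 1, exposed replicate 3 or exposed 144 h replicate 2 was left out (adjusted p of 0.0286 to 0.0467). ATF6 had a log2 fold change of 0.04 ± 0.06 (adjusted p = 0.786, limma) and EIF2AK3 of -0.06 ± 0.05 (0.509), and the groups overlapped for both. The log2 fold change of XBP1, the transcription factor whose mRNA IRE1 splices, was -0.07 ± 0.03 (0.121). After quantile normalization it was -0.09 and past the threshold (adjusted p = 0.0398, limma). FPKM values per gene do not tell spliced from unspliced XBP1 mRNA.

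The main ER chaperones also missed the threshold at 24 h. HSPA5, also known as BiP, is the HSP70 chaperone that holds the sensors inactive. HSPA5 had a log2 fold change of -0.09 ± 0.03 (adjusted p = 0.0816, limma), and HSP90B1 of -0.08 ± 0.03 (0.0757), with every exposed library below every untreated one for both genes. When FPKM were scaled to the same total, both passed the threshold, HSPA5 with -0.10 (adjusted p = 0.0413, limma) and HSP90B1 with -0.09 (0.0305). Of the 7 ERAD members and the 4 of translocation, glycosylation and export, none was called at 24 h, and their log2 fold changes lay between -0.12 (SEL1L) and 0.07 (SEC24D).

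At 144 h of exposure 15 of the 32 members were past the test, 7 higher (21.9%, against 24.2% of all genes) and 8 lower (25%, against 28.3%). These shares were close to those of all genes, and the members moved in both directions within most functions. The median log2 fold change was -0.03 over the members and -0.02 over all genes. The range ran from -0.25 for CALR to 0.32 for HSPA5, and none of the members passed the added threshold of 0.58, which 5.75% of all genes passed upward and 3.73% downward.

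Among the 9 chaperones and co-chaperones, 3 rose and 1 fell at 144 h. HSPA5 (gene at chr9:125234853-125241343, GRCh38.p13) measured 832, 794 and 826 FPKM in untreated replicates and 994, 1052 and 1023 in exposed ones. The groups were far apart relative to their spread (817 ± 20.5 and 1023 ± 28.9 FPKM, SD, n = 3), with a log2 fold change of 0.32 ± 0.03, a fold of 1.25 and an adjusted p of 9.56e-07. After quantile normalization the change was 0.12 (adjusted p = 0.00224, limma). HSP90B1 (gene at chr12:103930107-103949694) measured 1473, 1399 and 1447 FPKM in untreated and 1530, 1524 and 1494 in exposed replicates. Its log2 fold change was 0.07 ± 0.03 (adjusted p = 0.0301, limma), and the call did not hold without untreated replicate 2, without exposed replicate 1 or 2 (adjusted p of 0.0752 to 0.123) or when FPKM were scaled to the same total (0.0505) or quantile normalized (0.15), with only the groups compared in the model (0.0681) or without the intensity trend (0.0685). MANF measured 133, 133 and 134 FPKM in untreated and 141, 143 and 141 in exposed replicates, with a log2 fold change of 0.09 ± 0.03 (adjusted p = 0.0197, limma). That call fell short without untreated replicate 1 and without exposed replicate 2 (adjusted p of 0.0501 and 0.0576).

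CRELD2, a secreted ER protein with disulfide isomerase-like activity, was the chaperone-group member that fell at 144 h. CRELD2 measured 23.6, 22.6 and 24.0 FPKM in untreated and 20.4, 19.7 and 19.5 in exposed replicates. The exposed libraries were all lower, with a log2 fold change of -0.23 ± 0.03 and an adjusted p of 4.76e-05. SDF2L1, which assists HSPA5, had a log2 fold change of -0.13 ± 0.06 (adjusted p = 0.0676, limma). The log2 fold changes of the other members of the group were 0.04 for the J-domain protein DNAJB11, 0.03 for HYOU1, the nucleotide exchange factor of HSPA5, -0.0046 for DNAJC3, which inhibits PERK, and -0.04 for DNAJB9, and none of these passed the test.

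Among the 7 lectin chaperones and folding enzymes, 1 rose and 2 fell at 144 h. CALR (gene at chr19:12938578-12944489) measured 983, 982 and 1002 FPKM in untreated and 818, 828 and 855 in exposed replicates. No exposed library reached the untreated ones, and the log2 fold change was -0.25 ± 0.03 (adjusted p = 3.43e-06, limma). PPIB measured 732, 731 and 756 FPKM in untreated and 647, 637 and 671 in exposed replicates, also without overlap (log2 fold change -0.18 ± 0.03, adjusted p = 8.49e-05, limma). P4HB, the beta subunit of prolyl 4-hydroxylase, had a log2 fold change of 0.08 ± 0.02 (adjusted p = 0.0105, limma), which became -0.0051 (adjusted p = 0.905) under quantile normalization. CANX, the membrane-bound partner of CALR, had a log2 fold change of -0.03, and the disulfide isomerases PDIA3, PDIA4 and PDIA6 had -0.03, -0.06 and -0.02, none past the test.

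Among the 7 tested ERAD members, 2 rose and 1 fell at 144 h. EDEM1, a lectin that directs glycoproteins to degradation, measured 16.0, 15.6 and 15.2 FPKM in untreated and 17.4, 17.8 and 17.5 in exposed replicates (log2 fold change 0.17 ± 0.04, adjusted p = 0.00316, limma). DERL1, a component of the retrotranslocation channel, measured 24.3, 23.3 and 24.5 FPKM in untreated and 26.7, 27.3 and 27.3 in exposed replicates (log2 fold change 0.17 ± 0.03, adjusted p = 0.000621, limma). The exposed libraries of both genes all lay above the untreated ones. SELENOS, a selenoprotein that recruits the p97 ATPase, fell from 44.0 ± 0.354 to 40.3 ± 0.103 FPKM (SD, n = 3; log2 fold change -0.13 ± 0.04, adjusted p = 0.0159, limma). The ubiquitin ligase SYVN1 (0.01), its partner SEL1L (0.04), the scaffold HERPUD1 (0.05) and DERL2 (-0.09) had log2 fold changes that did not pass the test.

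Among the 5 sensors and factors, WFS1 rose and XBP1 fell at 144 h. XBP1 (gene at chr22:28793587-28800569) measured 155, 154 and 157 FPKM in untreated and 133, 129 and 133 in exposed replicates. The exposed libraries were all lower, with a log2 fold change of -0.24 ± 0.03 and an adjusted p of 5.44e-06. WFS1, wolframin, an ER membrane protein that restrains ATF6, measured 28.1, 27.7 and 29.1 FPKM in untreated and 33.6, 33.3 and 31.9 in exposed replicates, with no overlap (log2 fold change 0.22 ± 0.03, adjusted p = 9.84e-05, limma).

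The 3 sensors missed the threshold at 144 h as well. ATF6 measured 14.9, 15.2 and 15.6 FPKM in untreated and 14.8, 15.6 and 12.9 in exposed replicates (log2 fold change -0.08 ± 0.06, adjusted p = 0.274, limma). ERN1 measured 11.9, 12.4 and 11.7 FPKM in untreated and 11.3, 13.3 and 11.1 in exposed replicates, with a log2 fold change of -0.01 ± 0.08 (adjusted p = 0.905, limma) whose sign turned without untreated replicate 2 or exposed replicate 1 or 3 (0.01 to 0.04). EIF2AK3 measured 9.77, 9.74 and 9.70 FPKM in untreated and 9.71, 8.90 and 8.68 in exposed replicates (log2 fold change -0.10 ± 0.05, adjusted p = 0.134, limma), and without exposed replicate 1 the change was -0.15 with an adjusted p of 0.0404. The exposed libraries spread more widely than the untreated ones in all 3 genes and overlapped them, and the 95% confidence intervals of the log2 fold changes were -0.21 to 0.05 for ATF6, -0.18 to 0.16 for ERN1 and -0.21 to 0.02 for EIF2AK3.

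Among the 4 members of translocation, glycosylation and export, 3 fell at 144 h and none rose. SEC61B, a subunit of the Sec61 translocon, measured 243, 248 and 272 FPKM in untreated and 218, 222 and 221 in exposed replicates (log2 fold change -0.21 ± 0.05, adjusted p = 0.00198, limma). SEC24D, a cargo adaptor of COPII vesicles, fell from 32.9 ± 0.897 to 30.0 ± 0.735 FPKM (log2 fold change -0.13 ± 0.03, adjusted p = 0.00629, limma, n = 3). OSTC, a subunit of the oligosaccharyl transferase, fell from 182 ± 3.55 to 167 ± 4.54 FPKM (log2 fold change -0.12 ± 0.03, adjusted p = 0.00249, limma, n = 3). SEC61A1, the channel-forming subunit, had a log2 fold change of 0.04 ± 0.03 (adjusted p = 0.22, limma).

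**Figure D2:**
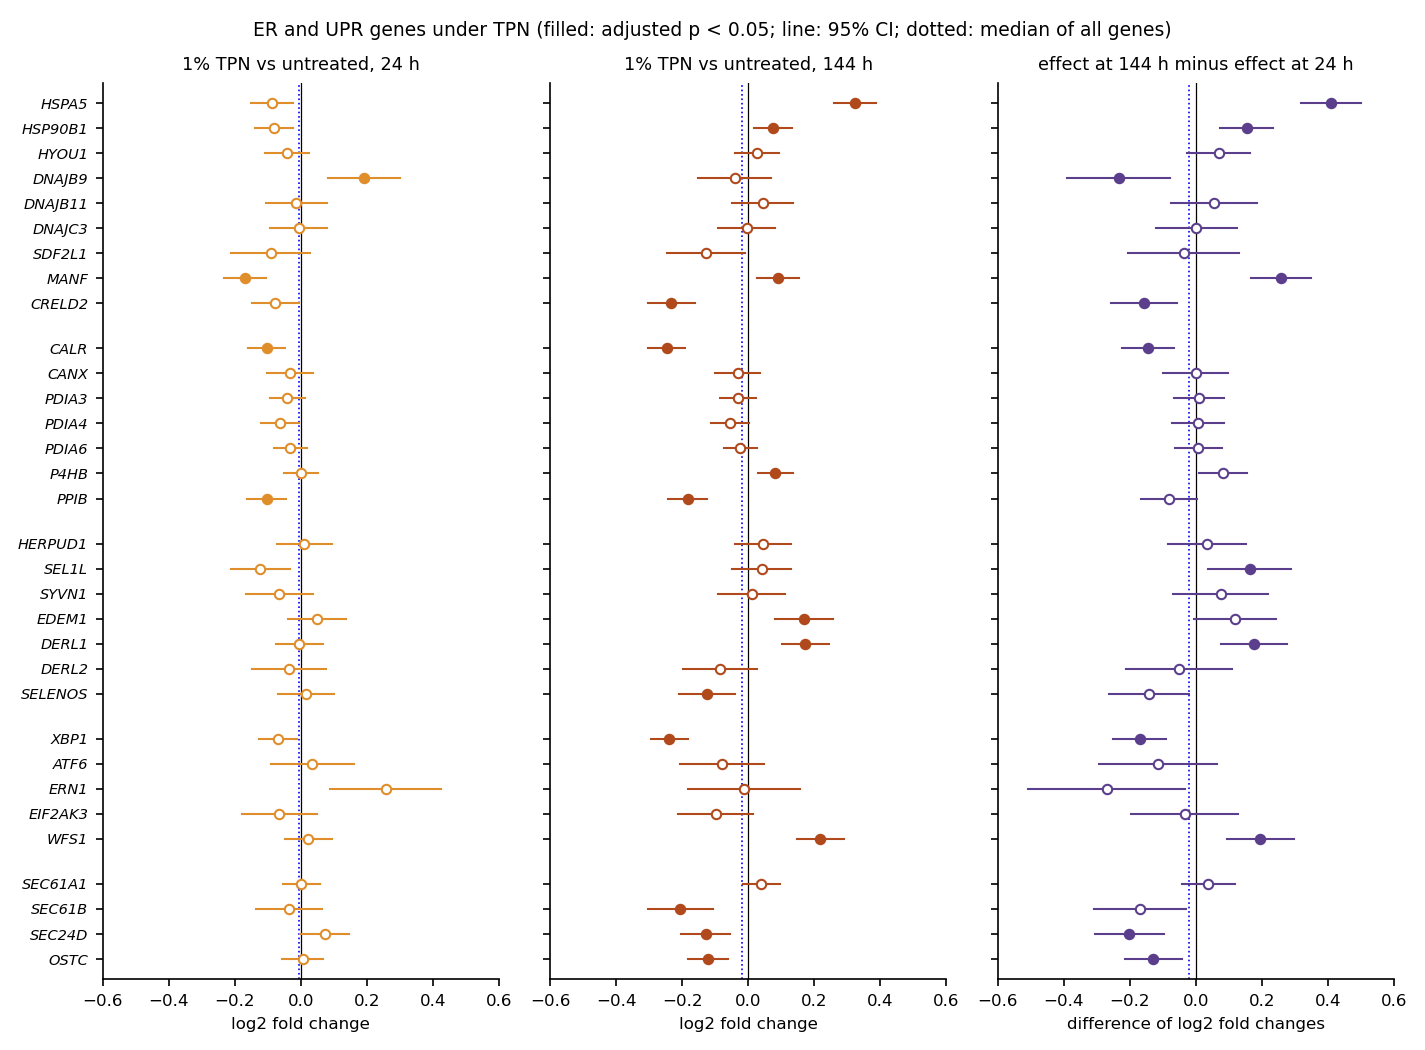
Log2 fold changes of the 32 tested members in exposed against untreated spheroids at 24 h and at 144 h, and the difference of these 2 changes, grouped by function from top to bottom (chaperones, lectin chaperones and folding enzymes, ERAD, sensors and factors, translocation to export), with 95% confidence intervals. Filled points passed the test, and the effect on HSPA5 (-0.09 at 24 h, 0.32 at 144 h) differs most between the times as deposited but not after quantile normalization, where HSPA5 has 0.12 at 144 h and the calls of HSP90B1 and P4HB at 144 h are lost.

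By the interaction of exposure and time in the same fit, 12 of the 32 members responded to TPN differently at 144 h and at 24 h. The effect was higher at 144 h in 6 members (18.8%, against 14.1% of all genes) and lower in 6 (18.8%, against 16.3%), with a median difference of 0.0041 over the members and -0.02 over all genes. Without untreated 144 h replicate 3 the number of lower members was 3. No member had a difference above 0.58 in size, which 4.2% of all genes had upward and 1.66% downward. The difference was 0.41 ± 0.04 for HSPA5 (adjusted p = 1.43e-05, limma) and 0.26 ± 0.04 for MANF (adjusted p = 0.000461, limma), which fell at 24 h and rose at 144 h. After quantile normalization these differences were 0.21 and 0.28, both past the test, so the order of the 2 genes depends on the scaling. It was 0.20 ± 0.05 for WFS1 (0.0072), 0.18 ± 0.05 for DERL1 (0.0115) and 0.15 ± 0.04 for HSP90B1 (0.00742). For SEL1L it was 0.16 ± 0.06 with an adjusted p of 0.0491, a call that was lost without any of 10 of the 12 libraries (adjusted p of 0.0637 to 0.115; it held without untreated 24 h replicate 3 or exposed 144 h replicate 3). The SEL1L call was also lost with no filter on low values, with FPKM scaled to the same total, with median ratios and without the intensity trend (0.0524 to 0.0779).

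The members whose effect was lower at 144 h were DNAJB9 (difference -0.23 ± 0.07, adjusted p = 0.0262, limma), SEC24D (-0.20 ± 0.05), XBP1 (-0.17 ± 0.04), CRELD2 (-0.16 ± 0.05), CALR (-0.14 ± 0.04) and OSTC (-0.13 ± 0.04). The call of DNAJB9 was lost without untreated 24 h replicate 3, exposed 24 h replicate 2 or 3, untreated 144 h replicate 1 or 3, or exposed 144 h replicate 3 (adjusted p of 0.0522 to 0.064). That of OSTC was lost without untreated 24 h replicate 2 or 3, exposed 24 h replicate 1, untreated 144 h replicate 1 or 3, or exposed 144 h replicate 1 (0.0543 to 0.0683) and without the intensity trend (0.0643), and that of CRELD2 without untreated 144 h replicate 3 (0.0526). That of XBP1 was lost after quantile normalization (-0.10, adjusted p = 0.0666, limma). Among the sensors the difference was -0.27 ± 0.11 for ERN1 (adjusted p = 0.0815, limma), -0.12 ± 0.08 for ATF6 (0.322) and -0.03 ± 0.08 for EIF2AK3 (0.769), and leaving out exposed 24 h replicate 3 turned the last to 0.0048. ERN1 passed the threshold without exposed 24 h replicate 3 or exposed 144 h replicate 2 (adjusted p of 0.042 and 0.0222).

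Culture time moved most of these genes more than TPN did. Among those that changed more with TPN at 144 h were CALR (-0.11 with time and -0.25 with TPN), XBP1 (-0.08 and -0.24) and PPIB (-0.12 and -0.18). In untreated spheroids 23 of the 32 members were higher at 144 h than at 24 h (71.9%, against 20.1% of all genes) and 7 were lower (21.9%, against 52.4%). With the added threshold of 0.58, 7 members were higher (21.9%, against 6.8%) and none was lower (against 12.2% of all genes). The median log2 fold change was 0.28 over the members and -0.18 over all genes, and 29 of the 32 members lay above the median of all genes. Scaling by median ratios moved the median of all genes to -0.0078, and then 26 members were higher (81.2%, against 33.1% of all genes) and 2 lower (6.25%, against 33.7%). After quantile normalization 23 were higher (71.9%, against 29.1%) and 4 lower (12.5%, against 37.9%). The median of the members exceeded that of all genes by 0.46 as deposited, 0.46 with median ratios and 0.42 with quantiles.

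The largest increases with time were those of DNAJB9, ERN1 and HERPUD1. DNAJB9 measured 11.5, 11.2 and 10.5 FPKM at 24 h and 44.5, 40.4 and 44.4 at 144 h, a log2 fold change of 1.96 ± 0.05 (adjusted p = 3.05e-12, limma). ERN1 measured 3.55, 3.33 and 3.07 FPKM at 24 h and 11.9, 12.4 and 11.7 at 144 h, a log2 fold change of 1.83 ± 0.08 (adjusted p = 2.05e-10, limma). HERPUD1 measured 33.5, 32.8 and 33.8 FPKM at 24 h and 92.1, 86.3 and 92.3 at 144 h, a log2 fold change of 1.43 ± 0.04 (adjusted p = 4.01e-12, limma). In all 3 the lowest library at 144 h was more than 2 times the highest at 24 h.

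HSPA5 followed, with 425, 431 and 433 FPKM at 24 h and 832, 794 and 826 at 144 h (log2 fold change 0.93 ± 0.03, adjusted p = 1.46e-11, limma). SEL1L rose from 26.0 ± 0.857 to 49.2 ± 0.542 FPKM (log2 fold change 0.92 ± 0.04, n = 3), HSP90B1 from 938 ± 17.2 to 1439 ± 37.7 (0.62 ± 0.03, n = 3) and SYVN1 from 22.3 ± 0.401 to 33.6 ± 2.06 (0.59 ± 0.05, n = 3). These are all genes of ER folding or ERAD, and their groups did not overlap. With DNAJB9, ERN1 and HERPUD1 they are the 7 members past the threshold of 0.58. DNAJC3 (0.58) and HYOU1 (0.57) rose by slightly less on the log2 scale. ATF6 rose from 11.4 ± 0.253 to 15.2 ± 0.334 FPKM (log2 fold change 0.42 ± 0.06, adjusted p = 1.95e-05, limma, n = 3) and EIF2AK3 from 7.49 ± 0.210 to 9.74 ± 0.0351 (0.38 ± 0.05, adjusted p = 2.17e-05, limma, n = 3), so that the RNA of all 3 sensors was higher at 144 h.

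Smaller increases with time were measured for EDEM1 (log2 fold change 0.46), SELENOS (0.41), DNAJB11 (0.37), PDIA4 (0.29), PDIA6 (0.29), MANF (0.26), DERL1 (0.25), CANX (0.18), PDIA3 (0.18), P4HB (0.15), SEC24D (0.11) and OSTC (0.09), all past the test, the last not without untreated 24 h replicate 3 (0.08, adjusted p = 0.0513, limma). The members lower at 144 h were WFS1 (-0.35 ± 0.03), CRELD2 (-0.31 ± 0.03), SEC61B (-0.24 ± 0.05), SEC61A1 (-0.13 ± 0.03), PPIB (-0.12 ± 0.03), CALR (-0.11 ± 0.03) and XBP1 (-0.08 ± 0.03). WFS1 and CRELD2 stayed lower past the test under every scaling tried. With median ratios, CALR (0.07), PPIB (0.06), XBP1 (0.10) and SEC61A1 (0.05) turned to the other sign, XBP1 also with quantiles (0.03), and SEC61B fell short of the threshold (-0.07, adjusted p = 0.23), as PPIB (-0.04, 0.146) and SEC61A1 (-0.03, 0.412) did with quantiles, so the direction of CALR, PPIB, XBP1 and SEC61A1 with time depends on the scaling. The call of XBP1 was also lost without untreated 24 h replicate 1 or 3 or untreated 144 h replicate 2 (adjusted p of 0.0546 to 0.0772). SDF2L1 (-0.09) and DERL2 (0.0001) did not pass the test. The sign of SDF2L1 turned with median ratios (0.08) and with quantiles (0.09).

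**Figure D3:**
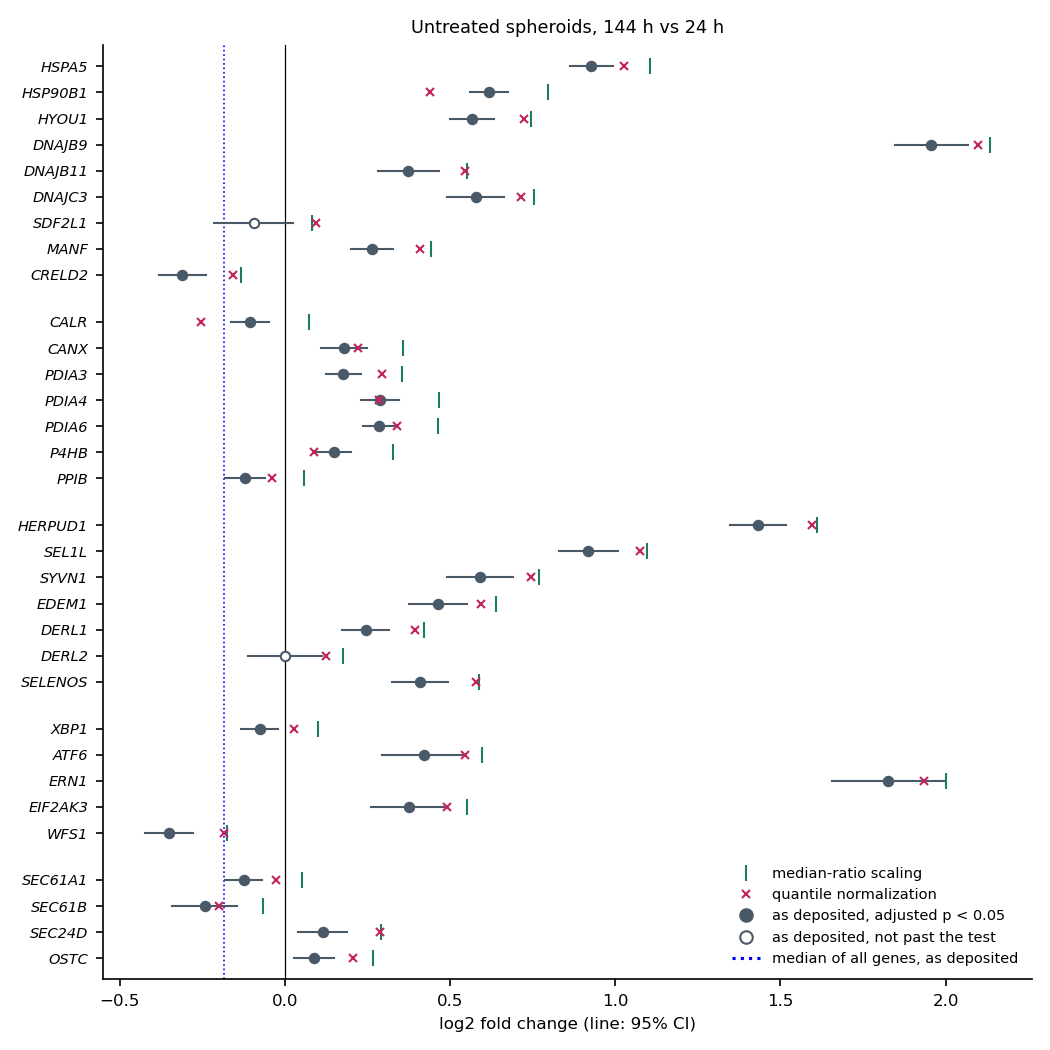
Log2 fold changes of the 32 tested members between 144 h and 24 h in untreated spheroids, with 95% confidence intervals, and the same changes under median-ratio scaling (green bars) and quantile normalization (red crosses). DNAJB9, ERN1 and HERPUD1 lie at 1.43 or above under each scaling, whereas CALR, PPIB, XBP1, SEC61A1 and SDF2L1, the last not past the test, change sign with the scaling.

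The comparison of times and the comparison of exposed with untreated spheroids at 144 h share the untreated 144 h libraries, so their values are set side by side without a test. HSPA5, HSP90B1, MANF, P4HB, EDEM1 and DERL1 were higher at 144 h in untreated spheroids and higher again with TPN (HSP90B1 and P4HB not past the test after quantile normalization), with changes of 0.93 and 0.32 for HSPA5 (1.03 and 0.12 after quantile normalization) and of 0.25 and 0.17 for DERL1. WFS1 had -0.35 with time and 0.22 with TPN. The 3 members that rose most with time had changes with TPN at 144 h of -0.04 (DNAJB9), -0.01 (ERN1) and 0.05 (HERPUD1), none past the test.

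The members with an ERSE or ERSE-II in the promoter did not share a direction with TPN at 144 h. With time, CALR, XBP1 and SDF2L1 among them changed sign with the scaling, and the others kept their sign. The 9 such members had a median log2 fold change of -0.03 with TPN at 144 h (2 rose and 3 fell) and the 20 with neither had -0.02 (4 rose and 4 fell). With time the medians as deposited were 0.18 (5 rose and 3 fell) and 0.33 (15 rose and 4 fell). With median ratios, CALR (0.07, adjusted p = 0.0328, limma) and XBP1 (0.10, 0.00393), which hold an ERSE, were higher with time. CRELD2 stayed lower (-0.13). Among the members with neither element, PPIB, SEC61A1 and SEC61B were then no longer past the test. HSPA5 and XBP1 both hold an ERSE on the strand of the gene close to the start, and with TPN at 144 h the first rose by 0.32 (0.12 after quantile normalization) and the second fell by 0.24 on the log2 scale. HERPUD1 and SDF2L1 each hold 1 ERSE-II, and their changes with time were 1.43 and -0.09. That of SDF2L1 did not pass the test and was 0.08 with median ratios and 0.09 with quantiles. DNAJB9 and ERN1, which rose most with time, held none of the 3 elements in these windows.

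Genes of the same pathways outside the 33 were described from lists chosen for their functions. Beside their counts stand the shares of all genes tested. These were 5.04% higher and 5.46% lower at 24 h of exposure, 24.2% and 28.3% at 144 h, and 20.1% and 52.4% with time. Counts of the lists with time are for values as deposited, and median ratios moved the shares of all genes with time to 33.1% and 33.7%. The list called here the PERK branch, with 9 genes from ATF4 to the stress-induced phosphatase subunits, had 4 higher and none lower at 24 h of exposure, and 4 higher and 2 lower at 144 h. The activity of PERK was not measured, so these counts describe only the RNA of the listed genes. TRIB3, a pseudokinase induced by ATF4, rose from 105 ± 1.77 to 132 ± 1.82 FPKM at 24 h (log2 fold change 0.33 ± 0.03, adjusted p = 9.9e-06, limma, n = 3), and PPP1R15A (GADD34), which directs the dephosphorylation of eIF2α, rose by 0.17 ± 0.05 on the log2 scale. At 144 h the glutathione-degrading enzyme CHAC1 rose from 2.02 ± 0.386 to 3.63 ± 0.263 FPKM (0.83 ± 0.15) and SESN2, a stress-induced regulator of mTORC1, from 16.9 ± 0.818 to 22.1 ± 0.546 (0.39 ± 0.05), while DDIT3 (CHOP) fell from 130 ± 6.28 to 97.6 ± 1.29 (-0.41 ± 0.09) and PPP1R15A from 71.0 ± 0.420 to 56.7 ± 0.670 (-0.32 ± 0.05). With time in untreated spheroids 8 of the 9 rose and 1 fell, DDIT3 from 21.2 ± 2.29 to 130 ± 6.28 FPKM (2.61 ± 0.09) and PPP1R15A from 13.4 ± 1.15 to 71.0 ± 0.420 (2.40 ± 0.05).

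Among 13 tested genes of the other UPR sensors and factors, 1 was higher with TPN at 24 h, and 2 were higher and 8 lower at 144 h, with a median of -0.21. CREB3L3 (CREBH), a liver-enriched relative of ATF6, rose at both times. At 24 h its log2 fold change was 0.29 ± 0.07 (SE, adjusted p = 0.0143, limma), and at 144 h it went from 15.9 ± 0.603 to 32.2 ± 2.45 FPKM (SD, n = 3), a log2 fold change of 1.01 ± 0.07 (SE, adjusted p = 3.73e-08, limma). MBTPS1, the site-1 protease that cleaves ATF6, rose by 0.14 ± 0.04 at 144 h. NFYC, a subunit of the factor that binds the CCAAT part of the ERSE, fell by 0.36 at 144 h. CREB3L1, also among the 8, fell by 0.61, from 0.13 to 0.05 FPKM, which is near the floor. It passed the filter on low values only through its 24 h levels (0.91 FPKM in untreated and 1.14 in exposed spheroids), so its call at 144 h carries little weight. With time 2 of these 13 genes were higher and 11 lower.

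Oxidative folding had 1 gene higher and 1 lower of 17 at 24 h, and 7 higher and 2 lower at 144 h, among them the sulfhydryl oxidase QSOX1 (30.6 to 53.7 FPKM, log2 fold change 0.81 ± 0.05), PDIA2 (0.56 ± 0.11) and ERP27 (-0.56 ± 0.09). At 144 h the co-chaperones and prolyl isomerases had 6 higher and 7 lower of 22 (PPIC 0.44 ± 0.06, FKBP7 -0.65 ± 0.13), the calnexin cycle and oligosaccharyl transferase 6 and 6 of 20 (DAD1 0.28 ± 0.03, GANAB -0.21 ± 0.03) and further ERAD genes 8 and 4 of 24 (EDEM3 0.38 ± 0.06, SELENOK -0.39 ± 0.05). TUSC3, an oxidoreductase subunit of the oligosaccharyl transferase, went from 0.13 to 1.33 FPKM. Translocation and the signal peptidase had 3 higher and 5 lower of 22 (SPCS3 0.21 ± 0.05, SEC11C -0.24 ± 0.05), and the COPII coat 3 and 4 of 16 (SEC16A 0.27 ± 0.04, SEC24B -0.18 ± 0.06). At 24 h these last 5 lists had none higher, and 1 gene in all was lower, OS9 of ERAD (-0.10 ± 0.03). Heat shock genes, most of them of the cytosol but with the mitochondrial chaperonins HSPD1 and HSPE1 and the factor HSF1 among them, had 4 higher and 1 lower of 16 at 24 h (BAG3 0.26 ± 0.04) and 3 higher and 5 lower at 144 h (DNAJB1 -0.62 ± 0.03). HSPA1B rose by 0.30 at 24 h and fell by 0.42 at 144 h, values that are uncertain because its near-identical copy HSPA1A can share its reads.

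Of the 165 genes annotated to protein processing in the ER by KEGG in the deposited table, 27 are members. Among the other 138, of which 130 were tested, 7 were higher and 4 lower with TPN at 24 h, 36 higher and 35 lower at 144 h, and 34 higher and 62 lower with time. Of all genes, 5.04% were higher and 5.46% lower at 24 h, 24.2% and 28.3% at 144 h, and 20.1% and 52.4% with time. The median log2 fold change of these 130 with time was -0.10 as deposited, beside 0.28 for the members and -0.18 for all genes.

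**Figure D4:**
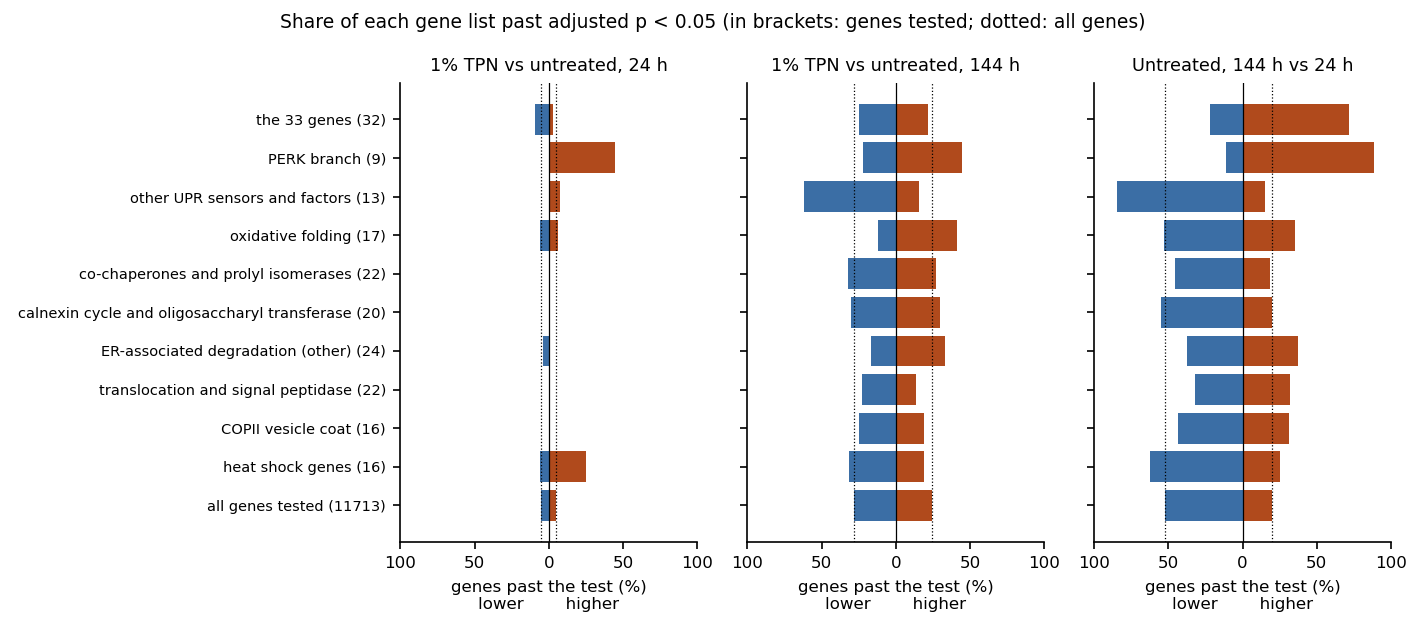
Percent of the tested genes of each list past the adjusted p threshold, higher to the right in red and lower to the left in blue, with the number of genes tested in brackets and dotted lines at the percentages of all 11713 genes. The members lie near the dotted lines under TPN and beyond them upward with time (71.9% against 20.1%), where the scaling changes the percentages as given in the text.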

How the data were processed

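RNA of 12 human liver spheroid co-culture libraries was analysed. Per the labels and the methods of the study, the authors made strand-specific libraries for DNBSEQ sequencing, mapped filtered reads to GRCh38.p13 with HISAT2 2.0.4 and to transcripts with Bowtie2 2.2.5, and estimated expression with RSEM. The deposited values are FPKM, rounded to 2 decimals, and FPKM are not counts, so no count model was used. In the table, 20 lines without a gene were dropped. No column of per-library values was left unmatched to a sample. The numbers in each group were taken from the sample titles, and the study describes independent experiments, so p-values measure the spread between these libraries.

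The 11713 genes that averaged 0.5 FPKM or more were compared as log2(FPKM + 0.1), which understates changes of low genes, with limma 3.58.1 in R 4.3.3, using a 4-group model, an intensity trend and Benjamini-Hochberg adjustment over all genes tested. Fold changes are on that scale, SEs and 95% intervals come from the same fit, and SDs are over 3 libraries. Calls required an adjusted p below 0.05. The depth rests on FPKM steps in 60 short genes and on GENCODE transcript lengths, and it bears on counting error only. The test was checked on simulated data. The members, the other gene lists and the tests were chosen with earlier results of these data known. All 33 members are named, HSPA5, HSP90B1, ATF6, ERN1, EIF2AK3 and XBP1 in full along with the 6 members of largest change among those called in each comparison, and from each other list at most the 2 genes that rose most and the 2 that fell most per exposure comparison. Outside this rule, the values of PPP1R15A and DDIT3 over time and of marker genes were chosen after they were seen. For HYOU1, CANX and DERL3 the deposited table gives positions on patch or alternate scaffolds, so no gene position is printed. Promoters are from RefSeq (GRCh38.p14), and the element patterns searched in them are textbook ones that no deposited file gives. Alternatives changed the pseudocount, filter, scaling, libraries in the model, trend and call rule, added a replicate block, or left out each library in turn. Tables were made in Python 3.11.15 (pandas 2.3.3, numpy 2.4.6) and plots with matplotlib 3.10.9. The fold changes the authors deposited were not used here.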

Additional observations from a re-analysis of the deposited data

Results flagged for a closer look

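In 12 members the effect of TPN at 144 h differed from its effect at 24 h by the interaction term in limma (adjusted p below 0.05), which is what brought them here. The difference of log2 fold changes, 144 h minus 24 h, was 0.41 for HSPA5, 0.26 for MANF, 0.20 for WFS1, 0.18 for DERL1, 0.16 for SEL1L and 0.15 for HSP90B1. It was -0.23 for DNAJB9, -0.20 for SEC24D, -0.17 for XBP1, -0.16 for CRELD2, -0.14 for CALR and -0.13 for OSTC. After quantile normalization it was 0.21 for HSPA5, 0.28 for MANF and -0.10 for XBP1, the last no longer past the test (adjusted p = 0.0666, limma), and the SEL1L call was lost in 14 of 21 alternative fits. Over all genes tested 14.1% had a higher and 16.3% a lower effect at 144 h by the same test, so the 18.8% of members in each direction lie near the background. Summed hepatocyte markers, 10322 to 11059 FPKM in exposed and 13225 to 14205 in untreated spheroids at 144 h, moved with the exposure, and their part in these differences was not tested.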

How the results depend on the processing

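Of the 61 calls of single members, 44 kept their sign and stayed past an adjusted p of 0.05 in all alternative fits. These were 1 of 4 at 24 h, 12 of 15 at 144 h, 7 of 12 in the difference between times and 24 of 30 with culture time. The added fold threshold is not one of these fits, and most of the 61 calls do not pass it, as its counts below show. At 24 h the number of members higher (1) was 0 with no filter on low values, with only the groups compared in the model, without the intensity trend and with the fold threshold, 2 with a mean FPKM of at least 5, and 0 to 2 when a library was left out. The number lower at 24 h (3) was 5 with FPKM scaled to the same total, 1 without the trend, 0 with the fold threshold and 1 to 4 when a library was left out. The fold threshold left 0 members at 144 h and in the difference between times in either direction, and 7 higher and 0 lower with time. Leaving out a library gave 5 to 7 higher and 8 to 9 lower at 144 h, 5 to 6 and 3 to 7 in the difference, and 22 to 23 and 6 to 7 with time, where median ratios left 2 lower and quantiles 4. Among called members and the sensors, signs turned for P4HB at 144 h (-0.0051 with quantiles) and for ERN1 at 144 h (-0.0939 to 0.0354 when a library was left out). They also turned for EIF2AK3 in the difference (-0.0812 to 0.0048 when a library was left out). With time they turned for CALR (0.0727), PPIB (0.0577), SEC61A1 (0.0528) and XBP1 (0.1015) with median ratios and XBP1 with quantiles (0.0283). SDF2L1, not called with time, turned with median ratios (0.0833) and with quantiles (0.0949). The cause was not tested.

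Same-numbered untreated and exposed libraries did not deviate together (correlations of 0.091, -0.083 and 0.103 at 24 h and of 0.016, -0.013 and 0.056 at 144 h), so the numbers were not taken to pair the samples. With a replicate block, 2 members were higher at 24 h, the second being ERN1 (adjusted p = 0.0248, limma), and 8 were lower in the difference between times, and the other counts kept their values. At the estimated depth the level of DERL3 could not be compared.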
